A study of Mus musculus with 2 samples.

Results

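Transcripts of 9 genes of the IL-1 family and the inflammasome were followed through the immune cells of the mouse aortic adventitia, the outer layer of the vessel wall. The genes were Il1a, Il1b, Il1rn, Il1r2, Il18, Il18bp, Nlrp3, Casp1 and Casp4, and they were taken by name from the gene table of both libraries. All 9 were found among the 55386 listed genes, each under 1 identifier. The rule that took them used names only, although the names were set down with earlier results of these data known.

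Both libraries held CD45-positive cells sorted from RankCreRosa26eYFP mice aged 16 weeks. In these mice Cre is driven by Rank, and cells descended from Rank-expressing yolk sac progenitors carry eYFP, while progeny of bone marrow stem cells largely do not. The steady-state library pooled untreated animals (3), and the AngII library pooled animals (2) given angiotensin II, a peptide hormone that raises blood pressure and inflames the vessel wall, at 1.8 µg per kg and min for 10 days. With 1 library per condition, no difference between conditions or cell classes could be tested over animals, and every interval below is an exact 95% interval of counting error only.

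IL-1α and IL-1β are ligands of the same receptor and start fever, recruitment of leukocytes and activation of the vessel wall. IL-1β and IL-18 are made as inactive precursors, and a caspase freed by an inflammasome, a protein platform assembled by a sensor such as NLRP3, cuts them into active cytokines. Several brakes are built into the pathway. IL-1 receptor antagonist blocks the receptor, IL-1R2 is a decoy that binds the ligand without signaling, and IL-18 binding protein captures IL-18. In monocytes, macrophages and neutrophils the transcripts of IL-1β and NLRP3 are induced by danger signals, whereas Casp1 is largely present beforehand. The libraries counted transcripts, and neither cleavage nor secretion was measured.

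After a filter of 300 to 6500 genes and at most 5% mitochondrial UMIs, 306 steady-state and 4198 AngII cells remained. A UMI is a tag that marks 1 captured transcript. The cells held 522 to 49485 UMIs at steady state (median 9105) and 500 to 54597 on AngII (median 1092). A share of cells with a UMI was therefore not comparable between libraries before thinning to 1000 UMIs per cell. Thinning left out cells with fewer UMIs, 1910 on AngII and 3 at steady state. Thinned AngII values thus describe only the 2288 deeper cells. Each cell was assigned to the class with the most detected markers among 14 lists of 10 genes, with at least 2 required, and the class names below mean cells gated in this way. This left 11 steady-state cells (3.59%) and 499 AngII cells (11.9%) without a class, and 20 and 799 gated cells led their second class by a single marker. None of the 9 genes was a gate marker. Macrophages were 138 and 2519 cells. Among them, resident macrophages, defined by Lyve1, Folr2, Cd163, Cbr2 and Gas6, were 115 cells (83.3% of macrophages) at steady state and 428 cells (17%) on AngII. The other AngII subclasses were reparative (542 cells, led by Spp1 and Arg1), type-2 (245), interferon (93) and other macrophages (1211). Neutrophils were 187 AngII cells, of which 50 led their second class by a single marker. They carried 40.4 CPM (UMIs per 1000000 UMIs of the class) of Ly6g, a neutrophil surface gene held out of the gate that was at 0 in macrophages. Adgre1, a macrophage gene also held out, was at 112 CPM in neutrophils and 332 in macrophages. The 14 lists had none for eosinophils, of which the paper describes a cluster on AngII. Only 3 steady-state cells were gated as neutrophils. No barcode was shared between the libraries.

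The genes lay on 5 chromosomes of GRCm38, with positions from GENCODE M21. Il1a (chr2:129299610-129309972, minus strand) and Il1b (chr2:129364570-129371139, minus strand) were neighbours, and Il1rn (chr2:24336853-24351494, plus strand) lay apart on the same chromosome. Casp1 (chr9:5298517-5307265) and Casp4 (chr9:5308828-5336783) were adjacent on the plus strand, and Il18 (chr9:50554827-50581840, plus strand) was on the same chromosome. Il1r2 was at chr1:40074079-40125231 (plus), Il18bp at chr7:102014885-102018690 (minus) and Nlrp3 at chr11:59541568-59566956 (plus). Il1a, Il1b, Il1r2, Il18 and Il18bp each overlap a gene on the other strand, and the 3′ kit keeps the strand of the transcript. Il1r2 also overlaps Gm37347 on its own strand, which strand cannot separate.

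The promoters of Il1b, Il1rn, Il1r2 and Nlrp3 are printed below because all 4 genes were highest in neutrophils of the AngII library; Il1a, which was too, is left out for its few cells. Each is the RefSeq window of 300 bases, from 250 before to 50 after a transcript start, on GRCm38.p6, read 5′ to 3′ on the strand of the gene. Il1rn and Nlrp3 had more than 1 RefSeq start, and 1 of each is shown. Capitals mark matches on either strand to 4 short motifs, the TATA box (TATAAA), a form of the PU.1 site (GAGGAA), a form of the NF-κB site (GGGA and CC with any 4 bases between them) and a form of the C/EBP site (TTGCNNAA).
Il1b (chr2:129371090-129371389, minus strand): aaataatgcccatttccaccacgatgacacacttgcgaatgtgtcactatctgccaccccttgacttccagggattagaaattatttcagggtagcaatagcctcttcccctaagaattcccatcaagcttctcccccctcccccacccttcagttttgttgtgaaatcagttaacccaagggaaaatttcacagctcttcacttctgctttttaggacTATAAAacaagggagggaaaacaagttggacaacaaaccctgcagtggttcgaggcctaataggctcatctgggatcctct
Il1rn (chr2:24336610-24336909, plus strand): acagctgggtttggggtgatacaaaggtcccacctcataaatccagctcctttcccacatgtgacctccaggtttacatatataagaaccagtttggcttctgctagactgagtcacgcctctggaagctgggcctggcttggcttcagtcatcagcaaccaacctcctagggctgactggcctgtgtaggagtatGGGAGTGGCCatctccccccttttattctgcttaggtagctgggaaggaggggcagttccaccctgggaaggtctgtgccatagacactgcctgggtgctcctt
Il1r2 (chr1:40085843-40086142, plus strand): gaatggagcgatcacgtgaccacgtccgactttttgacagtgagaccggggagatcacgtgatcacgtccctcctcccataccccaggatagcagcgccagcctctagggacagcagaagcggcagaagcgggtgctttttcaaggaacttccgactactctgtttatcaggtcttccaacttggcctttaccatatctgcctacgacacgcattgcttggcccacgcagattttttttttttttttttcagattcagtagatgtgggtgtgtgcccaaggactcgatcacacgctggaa
Nlrp3 (chr11:59542436-59542735, plus strand): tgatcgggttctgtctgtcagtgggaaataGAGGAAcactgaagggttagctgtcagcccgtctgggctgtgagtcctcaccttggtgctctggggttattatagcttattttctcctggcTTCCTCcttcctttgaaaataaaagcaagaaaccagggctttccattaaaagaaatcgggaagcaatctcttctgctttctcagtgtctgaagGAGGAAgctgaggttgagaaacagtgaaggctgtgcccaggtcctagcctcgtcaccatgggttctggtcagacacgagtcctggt

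The Il1b window held a TATA box 31 bases before the start, a motif found in 13.6% of 32851 RefSeq promoter windows of this length. The Nlrp3 window held the PU.1 form 3 times, 220, 129 and 36 bases before the start, the middle one on the reverse strand, against 28.3% of windows with at least 1 match. The other Nlrp3 window, at the annotated gene start, held no PU.1 form but the NF-κB form 186 bases before its start. The Il1rn window held the NF-κB form 54 bases before the start (20.7% of windows), which its 2 other windows lacked, and the Il1r2 window held none of the motifs searched. The window of the neighbouring Il1a gene held both a TATA box (32 bases before the start) and the PU.1 form (41 bases). The interferon element (GAAA, any 2 bases and GAAA; 3.44% of windows) had no match in the 13 windows of the 9 genes. These matches describe letters only, and no binding was measured.

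**Figure D1:**
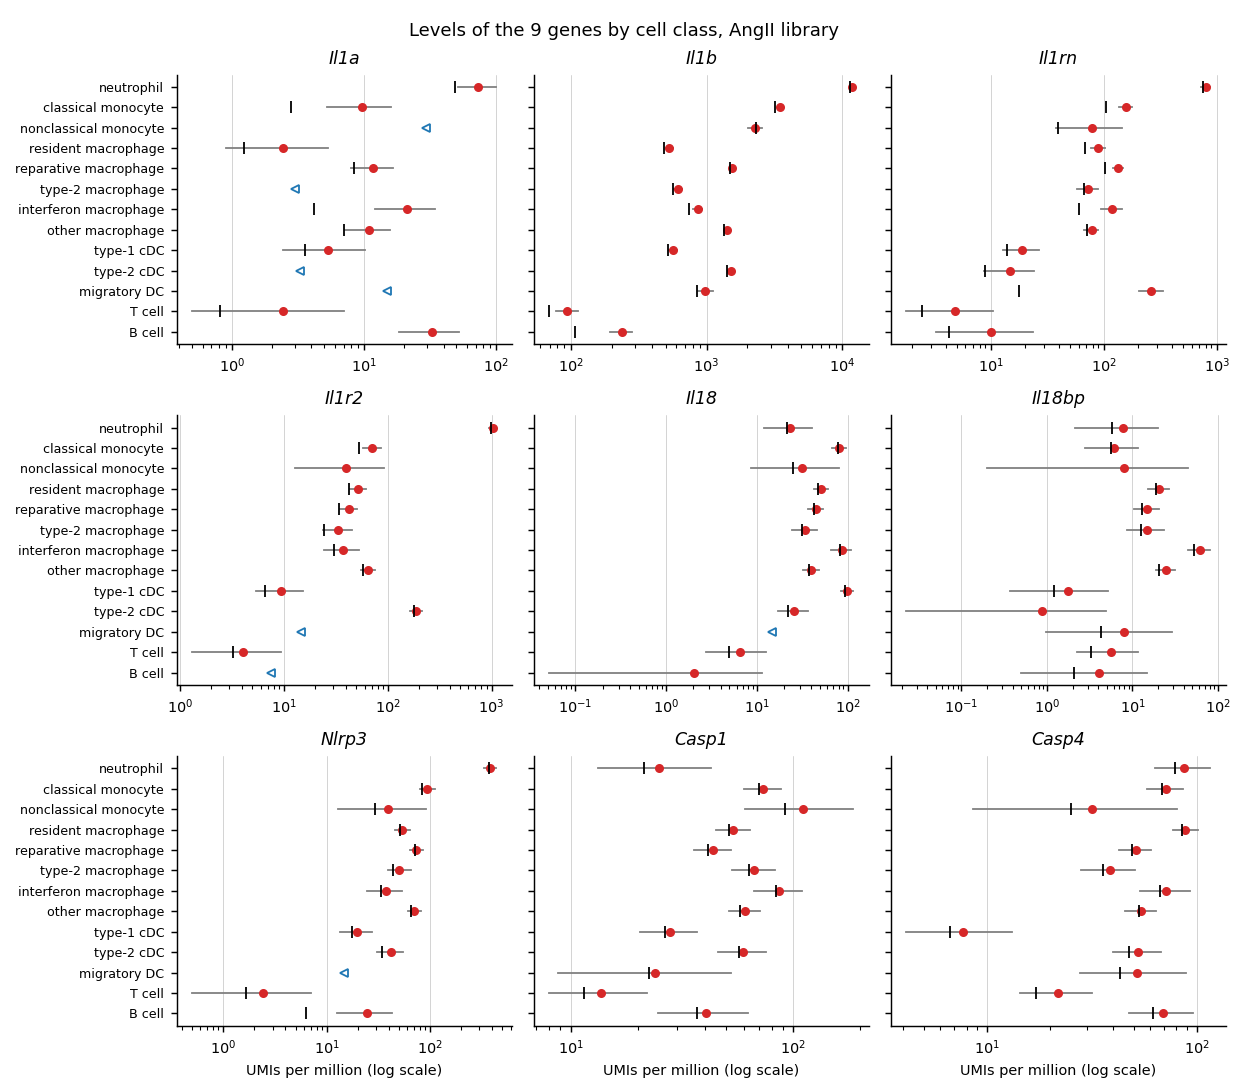
Levels of the 9 genes by cell class of the AngII library, in CPM on a log axis; red points are pooled UMIs of a class with their 95% counting interval, black ticks the level without the cell with the most UMIs, and open triangles the upper limit where no UMI was found. Il1b, Il1rn, Il1r2 and Nlrp3 stood highest in neutrophils (11744, 799, 1024 and 381 CPM), Il18 in type-1 conventional dendritic cells (99.7 CPM, not separated from the next class) and Il18bp in interferon macrophages (60.9 CPM).

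Il1b was by far the most abundant of the 9 transcripts, with 27887 UMIs in 2378 AngII cells, and it was highest in neutrophils. Neutrophils held 11744 CPM (11451 to 12043), classical monocytes 3476, nonclassical monocytes 2292, reparative macrophages 1548, type-2 conventional dendritic cells (cDC2) 1514, other macrophages 1425 and migratory dendritic cells 977. Interferon macrophages held 860.5 CPM, type-2 macrophages 616, type-1 conventional dendritic cells (cDC1) 566, resident macrophages 532, B cells 237 and T cells 94.4. The step from neutrophils to the next class was 3.38-fold (3.25 to 3.51), and the steps below it were 1.52-fold and 1.48-fold, while reparative macrophages and cDC2 did not separate (1.02, 0.966 to 1.08). Neutrophils were 4.45% of the AngII cells and held 21.9% of the Il1b UMIs, classical monocytes were 5.55% and held 18.2%, and macrophages were 60% and held 36.6%.

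Nearly every neutrophil carried Il1b. At least 1 UMI was found in 171 of 187 neutrophils (91.4%), in 73.8% of classical monocytes, in 66.6% of reparative and in 39% of resident macrophages. B cells, which are not a known main source of Il1b, were taken as a comparison for free RNA: 25.9% of 112 cells had a UMI at a median of 2744 UMIs, against a median of 2203 in neutrophils, and 67 of their 117 UMIs were in 1 cell (108 CPM without it). The B-cell level was no measure for the whole library, since plasmacytoid dendritic cells and type-2 innate lymphoid cells, 10 cells each, had 0 Il1b UMIs (upper limits 62.8 and 59.1 CPM). After thinning, the shares were 96.1% of neutrophils, 66.4% of classical monocytes, 56.8% of reparative and 28.8% of resident macrophages, 8.33% of B cells and 5.63% of T cells.

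At steady state Il1b was sparse and lay in few cells. Of 1365 UMIs in 58 cells, macrophages held 33.2%, classical monocytes 20.9%, nonclassical monocytes 11.9%, and the 3 neutrophils, 0.98% of cells, held 15.8%. These 3 cells had 42, 133 and 41 Il1b UMIs (16477 CPM, 14353 to 18827). The 10 classical monocytes were at 1862 CPM with 8 cells positive, whereas macrophages were at 255 CPM, B cells at 6.93 and T cells at 0. Only 21 of 138 macrophages (15.2%) had a UMI. A single resident macrophage barcode held 275 of the 453 macrophage UMIs, the next ones held 61 and 18, and the top 5% of macrophages (7 cells) held 89.4%. That barcode had 25883 UMIs and all 10 markers of its first class but also 9 of a second class, and it was also the top cell for Il1r2 and Nlrp3.

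Il1a, which encodes the ligand that is active without cleavage, was rare. The 3 steady-state UMIs were in 2 cells. On AngII 400 UMIs were found in 74 cells, and 232 of them (58%) lay in a single ungated barcode with 20636 UMIs in total, which also held 286 Il1b and 51 Il1rn UMIs and 4 markers of each of its leading classes. Neutrophils had the highest level among gated classes, 73.1 CPM (51.8 to 100.4) with 38 UMIs in 17 of 187 cells (9.09%). The values in B cells (32.4 CPM) and interferon macrophages (21.2 CPM) rested mostly on 1 cell each, with 16 of 16 and 13 of 16 UMIs. Reparative macrophages were at 11.7 CPM and resident macrophages at 2.44, and no UMI was found in nonclassical monocytes, cDC2, migratory dendritic cells or type-2 macrophages.

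Il1rn, the gene of the receptor antagonist, was also highest in neutrophils, at 799 CPM (724 to 879.5), with 47.1% of cells positive and 33.3% after thinning. Classical monocytes were at 157 CPM, reparative macrophages at 134, interferon macrophages at 118 and resident macrophages at 89.4. Dendritic cells stood well below these values, with 19 CPM in cDC1 and 15 in cDC2, close to the 10.1 CPM in B cells. The 264 CPM of migratory dendritic cells rested on 1 cell, which held 62 of their 66 UMIs (17.9 CPM without it). At steady state 98 Il1rn UMIs were counted in 19 cells, and 63 of them were in 1 macrophage.

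Il1r2, the decoy receptor, separated neutrophils and cDC2 from the other classes. Neutrophils held 1024 CPM (939 to 1115; 60.4% of cells, 53.5% after thinning) and cDC2 189 CPM (165 to 216; 33.1% of cells, 12.5% after thinning). Classical monocytes followed at 71.1 CPM, other macrophages at 64.5, resident macrophages at 52 and reparative macrophages at 42.2. No UMI was found in B cells, where the upper limit was 7.48 CPM, and cDC1 (9.5 CPM) and migratory dendritic cells (0) lay near it. Neutrophils held 35.9% of all Il1r2 UMIs of the AngII library, and macrophages, with 2519 cells against 187, held 31.4%.

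The IL-18 axis had another distribution. Il18 was highest in cDC1, the dendritic cells specialized in cross-presentation, at 99.7 CPM (85.2 to 116; 33.5% of cells). It did not separate from the next class (1.16, 0.865 to 1.57), interferon macrophages (86 CPM), nor these from classical monocytes (81.3 CPM). Resident macrophages were at 50.8 and neutrophils at 23.1. Migratory dendritic cells had no UMI (upper limit 14.8 CPM) and B cells 1. The steady-state library gave the same leading class, with 85.6 CPM and 9 of 11 cDC1 positive, against 23.1 CPM in macrophages. Il18bp, the soluble inhibitor of IL-18, was highest in interferon macrophages at 60.9 CPM (44.6 to 81.2; 26.9% of cells), 2.48 times (1.65 to 3.69) the next class. Resident macrophages were at 20.3 CPM, neutrophils at 7.7, cDC1 at 1.78 and cDC2 at 0.884. Macrophages as a whole held 84.9% of the 251 Il18bp UMIs. At steady state 13 of the 14 Il18bp UMIs were in macrophages.

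Nlrp3, the sensor, followed the neutrophil pattern. Neutrophils held 381 CPM (329.9 to 438; 46% of cells, 32.6% after thinning), 4.04 times classical monocytes at 94.3 CPM. Macrophage subclasses lay between 37.1 CPM (interferon) and 73.5 (reparative), cDC1 were at 19.6, T cells at 2.42 and migratory dendritic cells at 0. The B-cell value of 24.3 CPM came mostly from 1 cell with 9 of 12 UMIs.

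The caspases were spread far more evenly. Casp1, the protease of the canonical inflammasome, ranged from 13.7 CPM in T cells to 111 in nonclassical monocytes, and no class separated from its neighbour in that order. Neutrophils were near its lower end at 25 CPM (13.3 to 42.8), against 57 in macrophages and 40.6 in B cells. Casp4, which encodes the protease that senses lipopolysaccharide in the cytosol, was at 88.2 CPM (76.9 to 101) in resident macrophages, 86.6 in neutrophils, 71.1 in classical monocytes, 68.9 in B cells and 54 in other macrophages. The outlying class was cDC1 at 7.72 CPM (4.11 to 13.2), and the cDC1 of the steady-state library were likewise low at 4.28 CPM.

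Compared with the macrophages of the same AngII library, neutrophils held 5 of the 9 transcripts at over 2-fold higher and 3 at over 2-fold lower CPM, where 12.5% of all 11441 genes with at least 20 UMIs were higher and 28.5% lower. Il1r2 was 20.9 times the macrophage level (18.4 to 23.7), Il1b 10.9 times (10.6 to 11.3), Il1a 8.78 times (5.8 to 13.1), Il1rn 8.09 times (7.19 to 9.09) and Nlrp3 6.17 times (5.22 to 7.26). On the other side, Il18 was at 0.493 of the macrophage level (0.253 to 0.87), Casp1 at 0.439 and Il18bp at 0.343. Both IL-1 ligands, the antagonist, the decoy and the sensor were thus higher in neutrophils, while the share of members lower, 3 of 9, was near that of all genes. Casp4 differed by 1.41-fold. The Il1b ratio ranged from 7.24, as the mean of single cells, to 26.9 without cells near a second class. That rule kept only cells with over 2-fold as many markers of their own class as of the second, and it left 65 neutrophils.

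The remaining classes differed from macrophages in other genes. Classical monocytes were higher in Il1b (3.23-fold) and lower in Il18bp (0.274), where 3.26% of genes were higher and 15.3% lower. Nonclassical monocytes were higher in Il1b (2.13-fold, 1.89 to 2.39), while Il1a (0 UMIs, interval of the ratio 0 to 3.58) and Il18bp (1 UMI, 0.352, 0.00886 to 1.98) were past 2-fold lower with intervals that cover 1 (12.8% and 33.7% of genes). cDC2 were higher in Il1r2 (3.86-fold, 3.27 to 4.55) and lower in Il1a, Il1rn (0.152) and Il18bp (0.0394), beside 7% and 19.2% of genes. cDC1 were higher in Il18 (2.13-fold, 1.77 to 2.55) and lower in 6 members, Casp4 among them at 7.72 against 61.5 CPM, beside 8.43% and 23.8%. Of the 6, Il1rn (0.192) turned to 2.04 without cells near a second class. Migratory dendritic cells were higher in Il1rn, by 1 cell, and past 2-fold lower in 6 members, of which Il1a (0 UMIs, 0 to 1.82) and Il18bp (0.357, 0.0429 to 1.3) had intervals that cover 1 (10.5% and 42.3%). In T cells all 9 were lower and 0 higher (23.3% and 20.9% of genes). B cells were higher in Il1a, by 1 cell, and lower in 6 members, with Casp1 and Casp4 within 2-fold (12.6% and 28.7%).

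Among macrophage subclasses Il1a was past 2-fold in 3 and Il1b in 2, while Il18bp and Casp4 were past it in 1 each. Against resident macrophages, reparative macrophages held 2.91 times the Il1b level (2.73 to 3.1) and 4.81 times the Il1a level (1.97 to 14.1), where 3.91% of genes were higher and 4.98% lower, and Casp4 was at 0.581. Other macrophages held 2.68 times the Il1b of resident cells and were also higher in Il1a (4.46-fold, 1.8 to 13.2; 3.85% of genes higher, 4.12% lower). Interferon macrophages held 3 times the Il18bp level (1.96 to 4.56) and 8.68 times the Il1a level (3.95% of genes higher, 10.3% lower), the latter resting on 1 cell. Casp4 was lower in type-2 macrophages, at 0.435 of the resident level (10.5% of genes lower, 4.27% higher).

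Across the 13 classes and subclasses with at least 20 cells, the levels of the members were compared as log2(CPM + 10) by Pearson's r, which is given as a description because the classes share a library and its depth. Among the members Il1r2 and Nlrp3 were the most alike (r = 0.88), followed by Il1b with Il1r2 (0.80), Il1rn (0.79) and Nlrp3 (0.77), whereas Il1b and Il18bp were at 0.02. The genes most like Il1b were Srgn, a granule proteoglycan (0.94), Socs3, an inhibitor of cytokine signaling (0.94), and Zfp263 (0.93). Those most like Il1rn were Rabgef1 (0.95), Clec4d (0.93) and Clec4n (0.91), the last 2 of which are C-type lectin receptors of myeloid cells. Nlrp3 was nearest to Gm45220 (0.98), Cd300lf (0.94) and B430306N03Rik (0.94), and Il1r2 to Gm31718, Siglece and 1600010M07Rik (0.93 each). Il18 was nearest to Lgals3 (0.93), Ctnnbip1 (0.90) and Tnfrsf21 (0.89), and Il18bp to Tmem86a, Ccdc152 and the interferon-induced Siglec1 (0.86 each). Casp1 was nearest to Clec4a3 (0.91), Clec4a1 (0.90) and B4galt5 (0.89), Casp4 to Tgif1 (0.89), Kpna6 (0.85) and Il4ra (0.85), and Il1a to Vps54 (0.88), Treml2 (0.88) and C87436 (0.87). Some levels behind these values rested mostly on a single cell. They were Il1a in B cells and in interferon macrophages, Il1rn in migratory dendritic cells and Nlrp3 in B cells. No r was computed without those cells.

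Il1rn was set against Il1b within each class, since the antagonist competes with the ligand. The AngII library as a whole held 7.2 Il1rn UMIs per 100 Il1b UMIs (6.88 to 7.54). Neutrophils were at 6.8 (6.14 to 7.51), classical monocytes at 4.52 (3.94 to 5.16), and cDC2 at 0.993 (0.577 to 1.59). Resident macrophages were at 16.8 (14.5 to 19.4), interferon macrophages at 13.7, type-2 macrophages at 11.8, reparative macrophages at 8.69 and other macrophages at 5.49. The resident value was the highest among the macrophage subclasses. This order was lost after thinning, where resident macrophages were at 8.16, reparative macrophages at 9.39, cDC1 at 8.6 and nonclassical monocytes at 8.33. At steady state resident macrophages had 1.72 Il1rn per 100 Il1b UMIs (0.689 to 3.58), with 7 Il1rn UMIs, and 1.53 without the top cells.

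**Figure D2:**
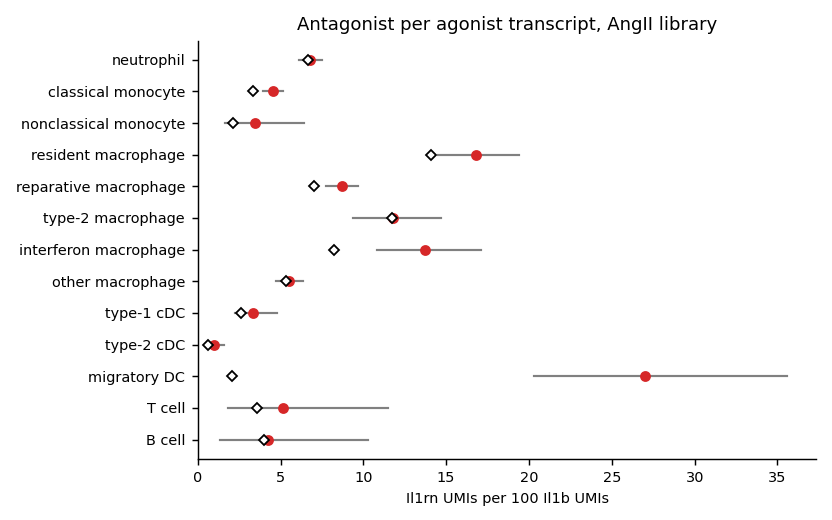
Il1rn UMIs per 100 Il1b UMIs in 13 classes of the AngII library, with 95% counting intervals; diamonds show the value without the cells with the most UMIs. Resident macrophages were at 16.8 and cDC2 at 0.993, and migratory dendritic cells were at 27 with all cells and at 2.05 without the top ones.

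Next, the macrophages of the AngII library were compared with those of the steady-state library. The makeup of the class differed (83.3% resident at steady state, 17% on AngII), and depth differed as well. The resident call needs detected markers and so depends on depth. On AngII other macrophages had a median of 839 UMIs and resident ones of 2128. With a minimum of 1000 genes, 236 of 781 AngII and 109 of 130 steady-state macrophages were resident. Of the 9 genes 5 were over 2-fold higher and 0 were over 2-fold lower, with a median ratio of 2.03, where 8.66% of 11733 genes were higher, 9.42% lower and the median was 0.974. Il1b was at 1077 CPM against 255, a ratio of 4.22 (3.84 to 4.64). Without the top cell of each group the ratio was 10.4, and over the alternatives run it lay between 3.38 and 15.2. The share of macrophages with an Il1b UMI was 56.6% against 15.2% before thinning and 49.7% against 8.82% after it. The thinned shares cover 1347 AngII and 136 steady-state macrophages. In B cells the thinned AngII share was 8.33%.

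**Figure D3:**
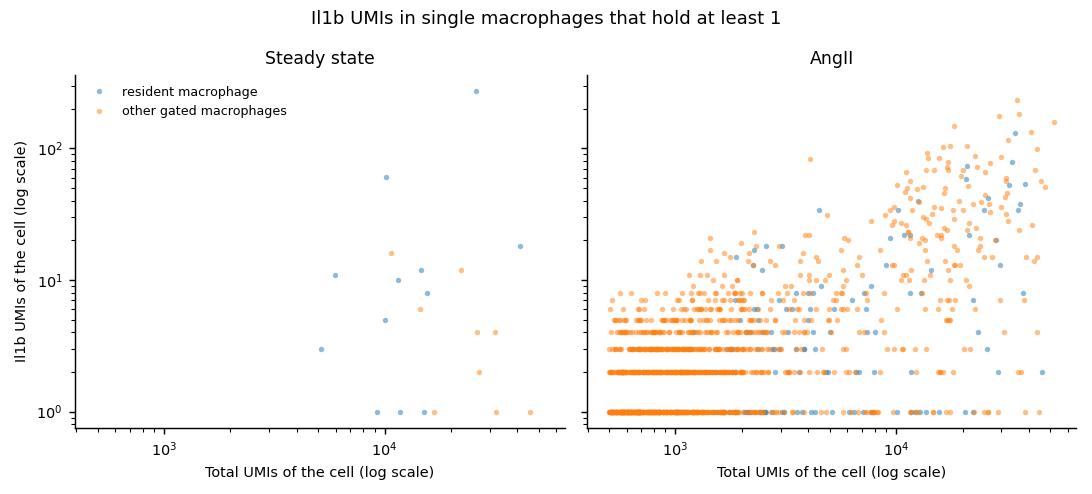
Il1b UMIs of each macrophage with at least 1 of them (vertical) against its total UMIs (horizontal), both on log axes, for 21 of 138 steady-state and 1425 of 2519 AngII macrophages, with resident and other macrophages in separate colours. One steady-state barcode with 275 Il1b UMIs stands far above the next one with 61.

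The other members were at lower counts. Il1r2 was at 49.1 against 7.33 CPM (6.69-fold, 3.87 to 12.7), with 13 steady-state UMIs of which 10 were in the barcode named above (27.2-fold without top cells). Il1rn was at 98.7 against 49.6 CPM (1.99-fold, 1.6 to 2.5), and 63 of 88 steady-state UMIs were in 1 cell, so that without top cells the ratio was 6.26. Il18bp was at 22.5 CPM, 3.06 times (1.75 to 5.85) a steady-state level of 13 UMIs. Il1a was 7.39-fold higher with a wide interval (1.98 to 62.1).

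Il18 was at 46.8 against 23.1 CPM (2.03-fold, 1.47 to 2.86), but among cells thinned to 1000 UMIs the ratio was 0.729, and the share of positive cells was 4.6% against 5.88%. Its direction therefore depended on the treatment of depth. The sensor and the caspases were within 2-fold. Nlrp3 was at 61.8 against 63.7 CPM (0.97, 0.792 to 1.2; 1.37 without top cells), Casp1 at 57 against 81.2 (0.701, 0.583 to 0.849) and Casp4 at 61.5 against 76.7 (0.802, 0.664 to 0.974). Il1rn, Nlrp3, Casp1 and Casp4 were thus the members within 2-fold.

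**Figure D4:**
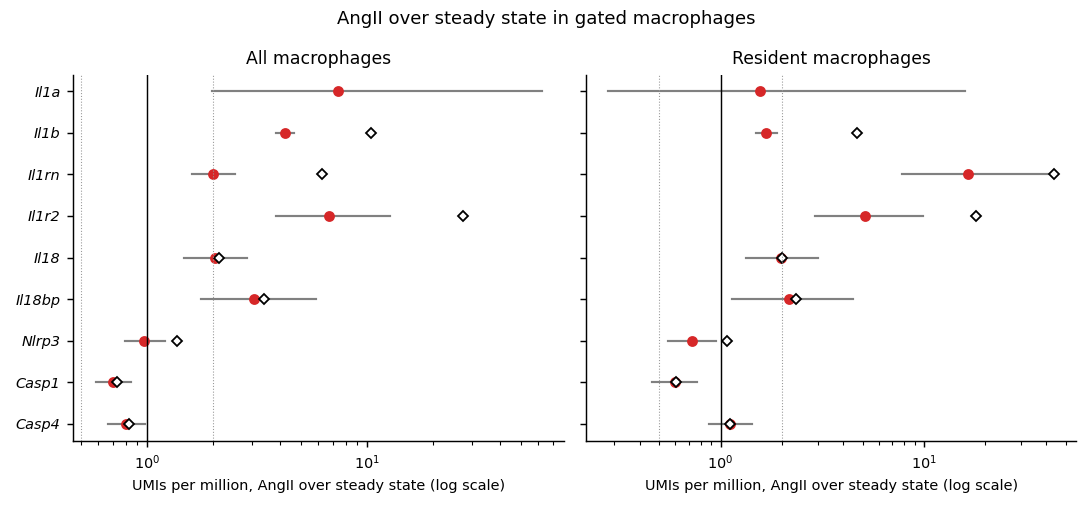
Ratio of AngII to steady-state CPM of the 9 genes in macrophages and in resident macrophages, on a log axis with 95% counting intervals; open diamonds leave the top cell of each group aside, and dotted lines mark 2-fold. Il1b was at 4.22 in all macrophages and 1.68 in resident ones, with 10.4 and 4.67 for the diamonds.

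Resident macrophages were compared by themselves, since their share of the class differed. Here 3 of 8 members with enough UMIs were over 2-fold higher and 0 lower (6.63% of 9645 genes higher, 7.28% lower). Il1rn was at 89.4 against 5.45 CPM, with 7 steady-state UMIs in 3 cells, a ratio of 16.4 (7.83 to 41.3). Il1r2 was 5.14-fold higher (2.9 to 9.92), though at 0.788 where clusters in place of the gate defined the cells, and Il18bp was 2.18-fold higher (1.14 to 4.49).

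The Il1b ratio of resident macrophages depended on how the cells were handled. Il1b was at 532 against 316 CPM (1.68, 1.5 to 1.89), and the steady-state value was 104 CPM without the top barcode, which gave a ratio of 4.67. It turned to 0.562 with clusters, and to 0.954 where the AngII and steady-state Il1b levels of B cells were taken off, the AngII one resting on 1 cell with 67 of 117 UMIs. With the T-cell levels taken off it was 1.38. After thinning 28.8% of AngII and 7.89% of steady-state resident macrophages had a UMI, beside 8.33% of AngII B cells. Casp1 was at 0.594 (0.459 to 0.769; 1.06 among thinned cells), Casp4 at 1.11, Il18 at 1.98 (0.882 among thinned cells) and Nlrp3 at 0.723 (1.08 without top cells).

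Lymphocytes were compared in the same way. In T cells Il1b (117 against 0 UMIs) was higher on AngII, and Casp4 was at 2.49 on 27 against 3 UMIs with an interval that covers 1 (0.767 to 12.8), among 3 members with enough UMIs (22.3% of genes higher, 6.64% lower), and in B cells Il1b alone among 3 (7.69% higher, 7.4% lower). Over all cells 6 of the 9 were higher and 0 lower (6.83% and 9.82% of genes), the classes being present in different shares. The B-cell Il1b level was 237 CPM on AngII and 6.93 at steady state. The part of free RNA in the macrophage values was not tested further.

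A fixed list held 45 names of other pathway genes, of which 41 were found. The names not found, Il36a, Il36b, Il36g and Il36rn, are other names of Il1f6, Il1f8, Il1f9 and Il1f5, which were present. In macrophages 31 of the genes had enough UMIs to compare. On AngII 7 were over 2-fold higher and 6 lower, with a median ratio of 0.908, where 8.66% of all genes were higher and 9.42% lower. The receptor side was mixed, with Il1rap, the shared receptor chain, at 2.03 and Il18rap at 26.7 (4.72 to 1064, from 1 steady-state UMI), but Il1rl1, the IL-33 receptor, at 0.424 and Il18r1 at 0.411. Sigirr, a receptor that dampens the signal, had 49 against 0 UMIs. Its ratio was 3.06 with a floor of 3 steady-state UMIs, and the lower limit of its interval was 2.39. Myd88, the adaptor of the receptors, was 2.63-fold higher (2.02 to 3.5) and 3.31-fold higher in resident macrophages. Among sensors Mefv was 57.6-fold higher (10.3 to 2283), from 1 steady-state UMI, while Nlrp1a (0.446) and Nlrc4 (0.448) were lower. Txnip, a protein that binds NLRP3, was at 0.304 (0.283 to 0.325) and Gsdme, a pore former, at 0.24 (0.167 to 0.345), and both were also lower in resident macrophages (0.37 and 0.136). The ligand Il1f9, which is IL-36γ, was at 2.15 on 23 against 2 UMIs (0.532 to 18.8) and the channel Panx1 at 2.22. Pycard, the adaptor between sensor and caspase, was at 278 against 155 CPM (1.79-fold).

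In the neutrophils of the AngII library 12 of 32 pathway genes were over 2-fold higher than in macrophages and 8 lower, where 12.5% of all genes were higher and 28.5% lower, so that the share lower was near that of all genes. Those higher included Il1f9 (166 against 2.43 CPM), Il1rap (194 against 13.7), Il18rap (133 against 15.1), Nlrp12 (44.3 against 0.527) and Txnip (768 against 226), along with Il1rl2, Il18r1, Myd88, Irak2, Aim2, Mefv and Gsdme. Those lower included Pycard (104 against 278), the ATP receptor P2rx7 (7.7 against 43.3) and Casp8 (55.8 against 126), along with Il1rl1, Sigirr, Nlrc4, Naip5 and Panx1. Receptors and sensors were thus found on both sides, with Il1rap, Il18rap, Aim2 and Mefv higher and Il1rl1, Sigirr, Nlrc4 and Naip5 lower.

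Last, Yfp+ and Yfp− macrophages were compared, with a cell called Yfp+ from 1 eYFP UMI. This call depends on depth: the AngII Yfp+ macrophages (348) had a median of 5265 UMIs and the Yfp− ones (2171) of 979, and resident cells were 40.2% and 13.3% of them. Thinned cells kept the Yfp call and the gate made at full depth, so thinning cannot remove the dependence of the call on depth. Il1b was lower in Yfp+ macrophages on AngII, at 723 against 1282 CPM (0.564, 0.539 to 0.59), and at 0.556 among thinned cells. Casp4 was higher, at 77.9 against 52 CPM (1.5, 1.27 to 1.77; 1.57 thinned). None of the 9 genes was past 2-fold, where 2.11% of genes were higher and 2.44% lower. For AngII, the paper names Il1b as a proinflammatory example among the genes expressed by Yfp− macrophages.

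Within subclasses the Il1b ratio of Yfp+ to Yfp− cells was below 1 in resident (0.754, 0.675 to 0.842), reparative (0.711), type-2 (0.89), other (0.783) and interferon macrophages (0.258, 0.206 to 0.32). In interferon macrophages, with 21 Yfp+ and 72 Yfp− cells, 4 of 8 members were over 2-fold lower (4.12% of genes lower, 5.82% higher), the others being Il1rn (0.226), Il1r2 (0.112) and Nlrp3 (0.242; 1.38, 0.0233 to 26.4, among thinned cells). Il1rn differed in opposite directions between subclasses. It was 3.27-fold higher in Yfp+ resident macrophages (122 against 37.2 CPM, 2.27 to 4.84; 2.57% of genes higher, 1.49% lower), with 1.48 (0.486 to 4.54) among thinned cells. In reparative macrophages it was at 0.298 (48 against 161 CPM; 4.94% of genes lower, 4.11% higher), with 0.621 among thinned cells. In type-2 macrophages Il1r2 was 2.52-fold higher (2.98% of genes higher, 5.24% lower), and in other macrophages Il1a was past 2-fold higher (2.36% higher, 4.52% lower). Il1a was sparse, at 10.9 CPM in other macrophages. The 79 Il1a UMIs of all AngII macrophages lay in 33 cells, with 13, 10 and 9 in the top cells.

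**Figure D5:**
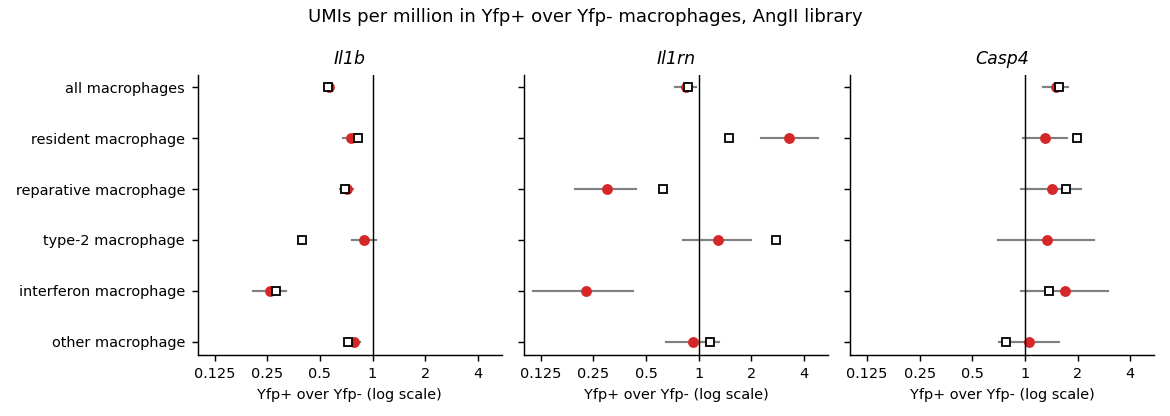
Ratio of Yfp+ to Yfp− CPM of Il1b, Il1rn and Casp4 by macrophage subclass of the AngII library, on a log axis with 95% counting intervals. Open squares are cells thinned to 1000 UMIs, with the Yfp call from full depth. In resident macrophages Il1b was at 0.754 and Il1rn at 3.27, the latter at 1.48 after thinning.

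At steady state the Yfp difference in Il1b went the other way. The 106 Yfp+ macrophages held 452 Il1b UMIs (293 CPM) and the 32 Yfp− macrophages 1 UMI (4.36 CPM), a ratio of 67.2 (12 to 2659), and 2 of 6 members were over 2-fold higher (10.1% of genes higher, 4.16% lower), Il1rn being the other at 2.03 with an interval that covers 1 (0.894 to 5.69). In resident macrophages all 406 UMIs were in Yfp+ cells, and Il1b was 1 of 5 members past 2-fold higher (11.9% of genes higher, 4.51% lower). The top barcode was among them, and the medians of depth were 11500.5 and 5770.5 UMIs. The paper describes a steady-state macrophage cluster with high Il1b that was formed by Yfp− cells only. Here classical and nonclassical monocytes were gated apart from macrophages and did not enter these ratios. They held 285 and 163 of the 1365 steady-state Il1b UMIs, and their match to that cluster was not tested.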

How the data were processed

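CD45-positive cells of whole aortas were captured with the Chromium 3′ v3.1 chemistry, with 1 library per condition. The authors made the deposited counts, UMIs per gene and barcode without normalization, with Cell Ranger 3.1.0 on GRCm38.p6 with the GENCODE M24 annotation and the eYFP sequence. Transcripts were read near their 3′ end, so levels are not divided by gene length and are compared between cells, not between genes. The deposited barcodes were those called as cells by the authors.

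A barcode entered with 300 to 6500 genes and no more than 5% of its UMIs mitochondrial (306 and 4198 passed), doublets were left in, and no background correction was made. Cells were gated into classes by detected markers, and UMIs were summed per class and divided by the summed UMIs of the class to give CPM. CPM have exact Poisson intervals, shares exact Clopper-Pearson intervals, and ratios intervals from the exact binomial split of both counts, all at 95%. A gene was called past 2-fold with at least 20 UMIs over both groups. A ratio against 0 UMIs was computed with a floor of 3 UMIs in place of the 0, which is not a limit of its interval. The 9 genes, the 45 pathway gene names and the gates were chosen with earlier results of these data known. Named besides them were the 3 genes most alike to each member, among genes with at least 200 UMIs. No columns of other samples were present (0). Before use, the ratio calls were tried on simulated Poisson counts of pooled classes. Those counts do not carry the concentration of UMIs in few cells, so they cannot test its effect on the calls.

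Alternatives were all barcodes, a minimum of 1000 genes, stricter gates, classes from clusters (scanpy 1.11.5, leidenalg 0.10.2), thinning to 1000 and 2000 UMIs, leaving out the top cell, the mean over single cells, leaving out cells near a second class, and Yfp+ from 2 UMIs. Cells near a second class were those whose leading class had no more than 2 times the detected markers of the second. Taking off the B-cell or T-cell level was added after the data had been seen. Computation ran in Python 3.11.15 with pandas 2.3.3 and scipy 1.17.1, and plots in matplotlib 3.10.9. Promoter windows and gene positions came from RefSeq and GENCODE M21 of the same build.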

Additional observations from a re-analysis of the deposited data

Results flagged for a closer look

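The Il1b ratio of Yfp+ to Yfp− macrophages pointed in opposite directions in the 2 libraries, at 67.2 at steady state and 0.564 on AngII. Monocytes, which were gated apart, entered neither ratio. With 1 library per condition this difference was not tested, and the steady-state value rests on 452 UMIs in Yfp+ and 1 UMI in Yfp− cells, 275 of them in 1 Yfp+ barcode.

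Cells that no class took, which enter the sums over all cells but no comparison between classes, held Il1a at 172 CPM in the AngII library, above every gated class. Of these UMIs 232 were in 1 barcode, and the level was 6.53 CPM without it.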

How the results depend on the processing

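Of 857 values computed under an alternative, 615 lay within the interval of the main value, or close to it for counts of genes. Another 217 lay further away, and 25 turned to the other side of 1. Only ratios whose main interval excluded 1 could count as turned, so crossings by the others are not among the 25. For the main results 42 stayed, 41 moved and 2 turned. The Il1b ratio of AngII to steady-state macrophages (4.22) was 15.2 with a gate margin of 2 markers, 5.46 with clusters, 6.67 among cells thinned to 2000 UMIs, 10.4 without top cells, 7.02 as the mean of single cells, 7.28 without cells near a second class and 3.38 with the B-cell level taken off. In resident macrophages (1.68) these were 8.39, 0.562, 3.89, 4.67, 2.89, 3.22 and 0.954, with 2.1 among cells thinned to 1000 UMIs and 1.38 with the T-cell level taken off. The neutrophil ratio (10.9) was 12.6 with a minimum of 1000 genes, 13.2 with the margin, 10 with clusters, 9.28 and 12.2 after thinning to 1000 and 2000 UMIs, 7.24 as the mean of single cells, 26.9 without cells near a second class, and 13.7 and 11.9 with the B-cell and T-cell level taken off. The neutrophil level (11744 CPM) was 12875 with a minimum of 1000 genes, 12760.1 with the margin, 13416 with clusters, 13278 thinned to 2000 UMIs, 11339.5 without the top cell, 9351 as the mean of single cells and 13943 without cells near a second class. The Yfp ratio on AngII (0.564) was 0.651 with all barcodes, 0.534 with the margin, 0.445 with clusters, 0.522 thinned to 2000 UMIs, 0.526 without top cells, 0.306 without cells near a second class, 0.522 with Yfp+ from 2 UMIs and 0.754 in resident cells. Of pathway genes 4 were higher and 3 lower among cells thinned to 1000 UMIs, and 3 lower without cells near a second class.

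Other ratios whose main interval excluded 1 turned as follows. Among thinned cells (1000 UMIs) Il18 was at 0.729 in macrophages and 0.882 in resident cells on AngII, Casp1 at 1.06 and Nlrp3 at 1.62 in resident cells, and in classical monocytes over macrophages Il1r2 was at 0.634, Nlrp3 at 0.392 and Casp1 at 0.689. At 2000 UMIs Nlrp3 was at 1.02 in resident cells and Casp4 at 0.9 in neutrophils. With clusters Il1r2 was at 0.788 in resident cells, and in classical monocytes Il1rn was at 0.629, Il1r2 at 0.715 and Nlrp3 at 0.995. With the margin Nlrp3 was at 1.11 in resident cells and Il1r2 at 0.902 in classical monocytes, and as the mean of single cells Il1r2 was at 0.974 and Nlrp3 at 0.913 there. Without top cells Nlrp3 was at 1.08 in resident cells. Without cells near a second class Nlrp3 was at 1.09 in resident cells, Il1rn at 0.868 in classical monocytes and 2.04 in cDC1, and Il1b at 1.7 in cDC1. The Yfp ratio of Il1rn was 3.27 in resident cells alone. The cause was not tested. The median depth of 1092 UMIs on AngII limits every share of cells with a UMI. No paired analysis was possible because each condition has 1 library with no replicate number.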

Other observations

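The 19 cells gated as mast cells or basophils in the AngII library together held 38 Il1b UMIs (1459 CPM, at a median of 802 UMIs per cell). None were found in 10 plasmacytoid dendritic cells or 10 type-2 innate lymphoid cells.

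Within AngII macrophages thinned to 1000 UMIs, 670 cells with and 677 without an Il1b UMI were set side by side. The cells with Il1b held 4.24 times the Il1r2 level of the others (2.58 to 7.3), 2.12 times the Il1rn level (1.43 to 3.2) and 1.76 times the Nlrp3 level (1.14 to 2.75). Casp1 was at 0.647 (0.402 to 1.03), Casp4 at 0.648 (0.409 to 1.02), Il18 at 1.11 and Il18bp at 0.786. In resident macrophages (93 and 230 cells) Casp1 was at 0.225 (0.0256 to 0.915) and Casp4 at 0.297 (0.0574 to 0.973). The subclasses are mixed among the macrophages in this comparison.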
